A study of Mus musculus with 6 samples.

Results

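The 10 chemokine genes described here are Ccl2, Ccl5, Ccl7, Ccl8 and Ccl20 of the CC family and Cxcl1, Cxcl2, Cxcl5, Cxcl10 and Cxcl12 of the CXC family. They were taken by symbol from the array's annotation, each was read by 1 probe with a single symbol, and they are 10 of 18069 genes named that way. Testing required good quality flags on the 3 arrays of either genotype. That left 9 of the 10 chemokines, since Ccl8 was flagged below background on all 6 arrays. The arrays measured RNA of early-passage mouse embryonic fibroblasts, which are primary cells and not clones. In 3 Ing1-deficient cultures, called C4, C3 and B1, a gene-trap cassette had been inserted in the Ing1 locus, and 3 cultures called H2, H3 and I2 were wild type, from littermate embryos. Every culture is a separate embryo, read on a separate 1-colour array, and the labels give no age beyond the embryo stage and do not say which embryos shared a litter.

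Chemokines are small secreted proteins that bind G protein-coupled receptors on leukocytes and other cells and direct their movement. The CC and CXC families are named for the spacing of their first conserved cysteines. CC chemokines act mainly on monocytes, T cells and dendritic cells. The CXC chemokines with an ELR motif (Cxcl1, Cxcl2 and Cxcl5 here) act on neutrophils through Cxcr2, whereas Cxcl10 attracts activated T cells through Cxcr3 and Cxcl12 acts through Cxcr4. Fibroblasts make many of them, and most are induced through NF-kB or interferon signalling after cytokine or microbial stimulation, while Cxcl12 is made constitutively by stromal cells.

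Values are normalized intensities, in which 1 is the median of the array's transcript probes. They can be compared between arrays for 1 probe but not between probes. Differences are log2 of Ing1-deficient over wild type, with values under 0.57 raised to 0.57, and ± after a difference is its standard error from limma. A gene was called when limma's p, adjusted by Benjamini-Hochberg over all 19575 tested probes, was under 0.05.

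Good flags covered 55.5% to 62.1% of the 34967 transcript probes per array, with a median spot signal of 18.8 to 25.4 units over a median background of 31 to 33. Ing1 itself read 1.38, 0.93 and 1.39 in C4, C3 and B1 and 11.7, 11.4 and 11.1 in H2, H3 and I2. Its difference was -3.23 ± 0.19 (limma, adjusted p = 0.000286), the direction the labels give. All 11 fibroblast markers measured, among them collagen and other matrix genes, carried a good flag on all 6 arrays, and their summed intensity was 1070 to 1138 in the deficient and 906 to 1127 in the wild-type cultures. The list was not level between genotypes: 9 of 11 differences were above 0, with a median of 0.33, and the matrix proteoglycan gene Lum (0.84 ± 0.19, limma, adjusted p = 0.0369) and the surface glycoprotein gene Thy1 (0.89 ± 0.22, adjusted p = 0.0492) were called higher. Without C4, C3, B1, H2 or I2 neither was called, and without H3 Lum was (1.03, adjusted p = 0.00735) and Thy1 was not (0.76, adjusted p = 0.0711). With 1 array left out, the 19575 tested probes gave 52 calls without C4, 5 without B1, 24 without H2 and 17 without I2. They gave 379 without C3 and 2726 without H3, against 1286 on all 6 arrays. A call lost in these fits, here and below, is thus not particular to that gene. Array H3 was the wild-type culture nearest to the deficient ones for several chemokines, and C3 had the most macrophage marker signal, so each chemokine's difference is also given without each of them. In bulk RNA, fewer cells of a type and less RNA per cell cannot be told apart, and this holds for every value here.

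Of the 9 tested chemokines, Ccl2 and Cxcl2 were higher and Ccl5 was lower in the deficient cultures, and the other 6 did not pass the test. Ccl2 differed by 2.00, which is 3.99-fold, and Cxcl2 by 1.49, which is 2.81-fold. Ccl5 differed by -1.58, which is 2.997-fold lower, with its deficient values raised to the floor. The 9 differences had a median of 0.68, and 7 of them were above 0, while the median over all tested probes was 0.02. Over all tested probes 1286 were called (6.57%), 967 higher (4.94%) and 319 lower (1.63%). The groups did not overlap in 4 of the 9 chemokines (Ccl2, Ccl5, Cxcl2 and Cxcl5), against 31.4% of all tested probes. An unadjusted limma p under 0.05 was found for 6 of the 9 chemokines and for 26.2% of all tested probes. Since the 10 genes were chosen with earlier results of these data known, these counts describe them and are not evidence about chemokines as a class.

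**Figure D1:**
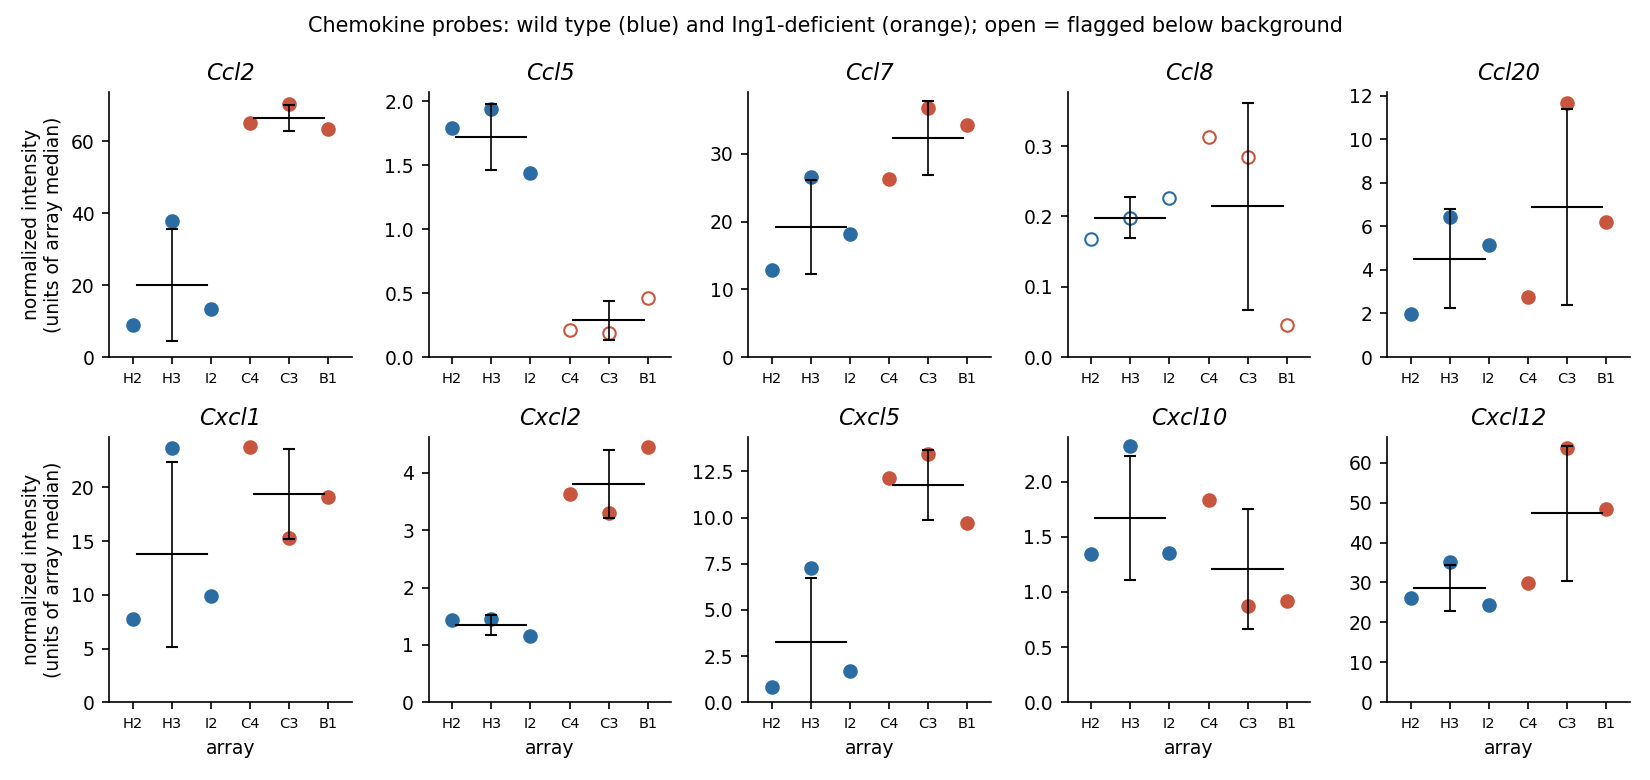
Normalized intensity (y axis, units of the array median, linear and starting at 0) of the 10 chemokine probes on each array (x axis), with wild-type cultures H2, H3 and I2 in blue and Ing1-deficient cultures C4, C3 and B1 in orange. Horizontal lines are group means and bars are SDs (n = 3, clipped at 0 for Cxcl5), open circles were flagged below background, and each panel has its own scale. Ccl2, Cxcl2 and Cxcl5 have all deficient cultures above all wild-type ones, and Ccl5 has the opposite order.

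The CC chemokines were split by detection. Ccl2, Ccl7 and Ccl20 carried good flags on all 6 arrays, Ccl5 only on the wild-type arrays, and Ccl8 on none. Ccl2 and Ccl7 (also called MCP-1 and MCP-3) both act on the monocyte receptor Ccr2 and are neighbouring genes on chromosome 11.

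Ccl2 read 65.2, 70.5 and 63.5 in C4, C3 and B1 and 8.99, 37.9 and 13.5 in H2, H3 and I2. The deficient cultures were tightly grouped, the wild-type cultures were spread out with H3 well above the rest, and the groups did not overlap. The means were 66.4 ± 3.63 and 20.1 ± 15.5 (SD, n = 3 each), coefficients of variation of 5.46% and 77.2%. The difference was 2.00 ± 0.43 (95% interval 1.02 to 2.97, limma, adjusted p = 0.0350). It was 2.59 without H3 (adjusted p = 0.00159) and 1.95 without C3 (adjusted p = 0.0762). It missed the threshold without any 1 of C4, B1, H2 or I2 as well, with values from 1.55 to 2.03 and adjusted p from 0.106 to 0.141, and under normexp (adjusted p = 0.0593), quantile (0.0693) and loess (0.0672) processing. Ccl2 was therefore higher on every deficient array, but its call depended on all of the arrays other than H3. The fits without 1 of those arrays called few probes of any kind, as given above.

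Ccl7 read 26.3, 36.7 and 34.2 in C4, C3 and B1 and 12.9, 26.6 and 18.2 in H2, H3 and I2. H3 lay just above C4, so the groups overlapped by that pair. The difference of 0.80 ± 0.26 (95% interval 0.21 to 1.39) did not pass the test (limma, adjusted p = 0.0965), but without H3 it was 1.07 and passed (adjusted p = 0.0210), and without C3 it was 0.70 (adjusted p = 0.207). The interval includes both a small difference and one above 2-fold.

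Ccl5 (RANTES), which attracts T cells and monocytes, went the other way. It read 0.21, 0.19 and 0.46 in C4, C3 and B1, all flagged below background, and 1.79, 1.94 and 1.44 in H2, H3 and I2, all with good flags. All wild-type cultures were above all deficient ones, and H3 was like the other wild-type cultures here. The means were 0.288 ± 0.153 and 1.72 ± 0.258 (SD, n = 3 each). The difference was -1.58 ± 0.16 (95% interval -1.95 to -1.22, limma, adjusted p = 0.0063) with the deficient values raised to the floor. Ccl5 entered the test by its wild-type flags alone and was untested when good flags were required on all 6 arrays. The 3 raised deficient values were equal, so the standard error, interval and p rest partly on the floor, also with 1 array left out. With a floor of 0.01 the difference was -2.69 ± 0.34 (limma, adjusted p = 0.031). Because the deficient level is only a bound, the fold is given as at least 3.78-fold lower, the wild-type mean against, on each deficient array, the higher of its lowest good-flag signal and the Ccl5 value itself. This uses another lower limit than the floor behind the difference of -1.58. Ccl5 passed in 5 of the 6 fits that leave out 1 array and missed the threshold without B1 (-1.58, adjusted p = 0.0645). It was -1.49 without H3 (adjusted p = 0.00372) and -1.58 without C3 (adjusted p = 0.0192). With the floor at 2 times this height it was -0.58 and missed the threshold (adjusted p = 0.104), and with normexp it was -0.60 and passed (adjusted p = 0.0286). T and NK cell markers, a further source of Ccl5 in mixed tissue, had summed intensities of 2.03 to 2.69 in the deficient and 2.54 to 3.08 in the wild-type cultures over 7 genes. Of these 7, Cd3e, Gzma, Klrd1 and Nkg7 were below background on all 6 arrays. Cd3d had good flags on all 6, and its wild-type values were all above its deficient ones. Cd2 had good flags on the 3 wild-type arrays and, among the deficient ones, only in B1. Cd3d differed by -0.47 ± 0.16 (adjusted p = 0.106) and Cd2 by -0.33 ± 0.19 (adjusted p = 0.307). Cd3g went the other way, with 0.71, 0.23 and 0.35 in C4, C3 and B1 and 0.11, 0.07 and 0.01 in H2, H3 and I2. It had a good flag only in C4 and was not tested. The part of T and NK cells in the Ccl5 result was not tested.

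Ccl20, the ligand of Ccr6, read 2.76, 11.7 and 6.22 in C4, C3 and B1 and 1.99, 6.42 and 5.16 in H2, H3 and I2. Each group had 1 low culture, C4 and H2, and the groups overlapped widely. The difference of 0.54 ± 0.55 (95% interval -0.69 to 1.77) did not pass (limma, adjusted p = 0.577), and it was 0.04 without C3, 0.02 without H2, 0.87 without H3 and 1.08 without C4, none of which passed. Ccl8 (MCP-2) read 0.31, 0.28 and 0.05 against 0.17, 0.20 and 0.23, all below background, so no difference is given.

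**Figure D2:**
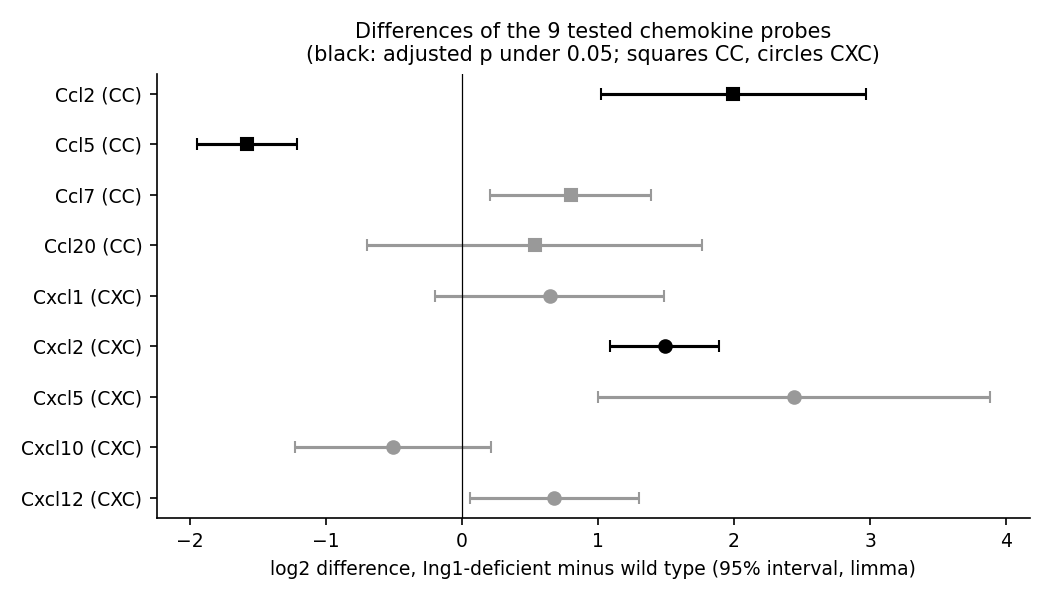
Log2 difference, Ing1-deficient minus wild type (x axis), of the 9 tested chemokine probes (y axis), with 95% intervals from limma over 3 arrays per genotype. Squares are CC and circles CXC chemokines, and black marks an adjusted p under 0.05. Ccl2 and Cxcl2 lie right of 0 and Ccl5 left of it, and Cxcl5 has the highest estimate and the widest interval.

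All 5 CXC chemokines carried good flags on all 6 arrays. Cxcl5, Cxcl1 and Cxcl2 lie in 1 cluster on chromosome 5, in the order Cxcl5, Ppbp, Pf4, Cxcl3, Cxcl15, Cxcl1 and Cxcl2 among protein-coding genes. Cxcl10 is elsewhere on chromosome 5, and Cxcl12 is alone on chromosome 6.

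Cxcl2 (MIP-2), a neutrophil attractant, read 3.64, 3.30 and 4.45 in C4, C3 and B1 and 1.43, 1.46 and 1.15 in H2, H3 and I2. Both groups were tight, with coefficients of variation of 15.6% and 12.5%, and no array lay between them. The means were 3.80 ± 0.592 and 1.35 ± 0.169 (SD, n = 3 each), and the difference was 1.49 ± 0.18 (95% interval 1.09 to 1.89, limma, adjusted p = 0.0116). It passed without C4 (1.52), C3 (1.59) or H3 (1.55) and missed the threshold without B1 (1.37, adjusted p = 0.0705), H2 (1.54, adjusted p = 0.0529) or I2 (1.38, adjusted p = 0.0862). Background correction by normexp brought the size down to 0.69, and it still passed (adjusted p = 0.0256).

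Cxcl1 (KC), the next gene to Cxcl2 and a ligand of the same receptor, read 23.7, 15.3 and 19.1 in C4, C3 and B1 and 7.77, 23.6 and 9.90 in H2, H3 and I2. H3 was as high as the highest deficient culture, while H2 and I2 were below all of them. The difference of 0.64 ± 0.37 (95% interval -0.19 to 1.48) did not pass (limma, adjusted p = 0.305), and it was 1.12 without H3 and then passed (adjusted p = 0.0181). It was 0.32 without H2 (adjusted p = 0.682) and 0.80 without C3, which did not pass.

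Cxcl5 (LIX), also a ligand of Cxcr2, read 12.1, 13.4 and 9.73 in C4, C3 and B1 and 0.81, 7.25 and 1.69 in H2, H3 and I2. The groups did not overlap, and the wild-type coefficient of variation was 107% against 16.0% in the deficient cultures. The difference of 2.44 ± 0.64 had the highest estimate of the 9, 5.43-fold, with a 95% interval of 1.0 to 3.88. It did not pass (limma, adjusted p = 0.0552). Without H3 it was 3.32 and passed (adjusted p = 0.00199). It also passed when only probes with good flags on all 6 arrays were tested (adjusted p = 0.0439). It passed in 4 of 20 alternatives in all, and it was 1.73 without H2 (adjusted p = 0.146), 2.34 without C3 (adjusted p = 0.115) and 1.42 with normexp (adjusted p = 0.0693).

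Cxcl10 (IP-10), an interferon-induced gene, read 1.83, 0.87 and 0.92 in C4, C3 and B1 and 1.34, 2.32 and 1.36 in H2, H3 and I2. C4 lay among the wild-type cultures. The difference was -0.51 ± 0.32 (95% interval -1.23 to 0.21, limma, adjusted p = 0.349), and no fit that left out 1 array passed. It was -0.25 without H3, -0.31 without C3 and -0.85 without C4. Cxcl12 (SDF-1) read 29.8, 63.7 and 48.4 in C4, C3 and B1 and 26.1, 35.1 and 24.4 in H2, H3 and I2. C3 was the highest and C4 fell below H3. Its difference was 0.68 ± 0.28 (95% interval 0.06 to 1.30, limma, adjusted p = 0.158), 0.43 without C3 and 0.84 without H3, neither of which passed.

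Upstream sequence is printed for Cxcl1, Cxcl2 and Cxcl10, which share NF-kB-type letters and of which Cxcl2 passed the test. Ccl20 also held such letters, did not pass and is not printed. RefSeq sequence of build GRCm38.p6 was held for 6 of the 10 chemokines (Ccl8, Ccl20, Cxcl1, Cxcl2, Cxcl10 and Cxcl12), covering 250 bases before and 50 after the start. The lines give the 250 bases before the start, from 5′ to 3′ on the gene's strand, for Cxcl1 at chr5:90890995-90891244 and Cxcl2 at chr5:90903649-90903898 on the plus strand and for Cxcl10 at chr5:92348890-92349139 on the minus strand. Capitals mark the letters GGGNNNTTCC of NF-kB sites (kappaB) and GAAANNGAAA of interferon-response elements (ISRE), on either strand.
Cxcl1: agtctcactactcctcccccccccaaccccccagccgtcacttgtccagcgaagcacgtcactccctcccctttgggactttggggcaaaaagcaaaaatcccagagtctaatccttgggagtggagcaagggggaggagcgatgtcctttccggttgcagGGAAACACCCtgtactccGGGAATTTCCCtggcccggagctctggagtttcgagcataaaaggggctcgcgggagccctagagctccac
Cxcl2: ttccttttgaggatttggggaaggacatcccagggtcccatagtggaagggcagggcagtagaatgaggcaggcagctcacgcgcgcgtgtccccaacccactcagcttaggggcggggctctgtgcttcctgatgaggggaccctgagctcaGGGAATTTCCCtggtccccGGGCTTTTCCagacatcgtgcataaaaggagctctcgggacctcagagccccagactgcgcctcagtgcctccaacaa
Cxcl10: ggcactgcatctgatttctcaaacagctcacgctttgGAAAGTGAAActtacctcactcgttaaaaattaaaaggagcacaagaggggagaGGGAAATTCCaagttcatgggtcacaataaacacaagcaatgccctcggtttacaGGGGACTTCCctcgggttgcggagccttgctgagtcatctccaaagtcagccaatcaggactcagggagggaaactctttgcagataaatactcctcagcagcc

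Counting the base just before the start as -1, Cxcl1 held kappaB letters at -89 to -80 on the minus strand and at -71 to -62 on the plus strand, the latter overlapping a minus-strand match at -70 to -61. Cxcl2 held the same GGGAATTTCC at -97 to -88, overlapping a minus-strand match at -96 to -87, and GGGCTTTTCC at -78 to -69. Cxcl10 held GGGAAATTCC at -159 to -150, GGGGACTTCC at -104 to -95 and the ISRE letters at -213 to -204. Ccl20 had 1 kappaB match on the minus strand at -80 to -71, and Ccl8 and Cxcl12 had no match to either motif in this window. Over 32851 promoter windows of 300 bases, 5.56% held the kappaB letters and 3.44% the ISRE letters. A match describes the letters only. Cxcl1 and Cxcl2 carry like letters and differed in the test as given above.

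The wild-type array H3 was the highest of its genotype in 9 of 9 tested chemokines, against 28.9% of all tested probes. In the lists described below, the same held for 5 of 20 other chemokine ligands and 2 of 10 chemokine receptors. It held for 8 of 13 inducing cytokines and their receptors, 7 of 12 genes of NF-kB signalling and 4 of 11 of interferon signalling. H3 exceeded at least 1 deficient value in 6 of the 9 chemokines. Over the 9 genes, H3 minus the mean of H2 and I2 had a median of 0.79 on the log2 scale, against -0.08 over all tested probes. The gap was 2.63 in Cxcl5, 1.78 in Ccl2, 1.43 in Cxcl1 and 1.0 in Ccl20, and 0.18 in Cxcl2 and 0.27 in Ccl5, the members with the smallest gaps. H2 was the lowest of all 6 arrays in 5 of the 9. The order of H3 above H2 and I2 was the same in all 9 after quantile, loess and normexp processing. Leaving out H3 raised the number of chemokines called from 3 to 6 and the number of all probes called from 1286 to 2726. What sets H3 apart was not tested.

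**Figure D3:**
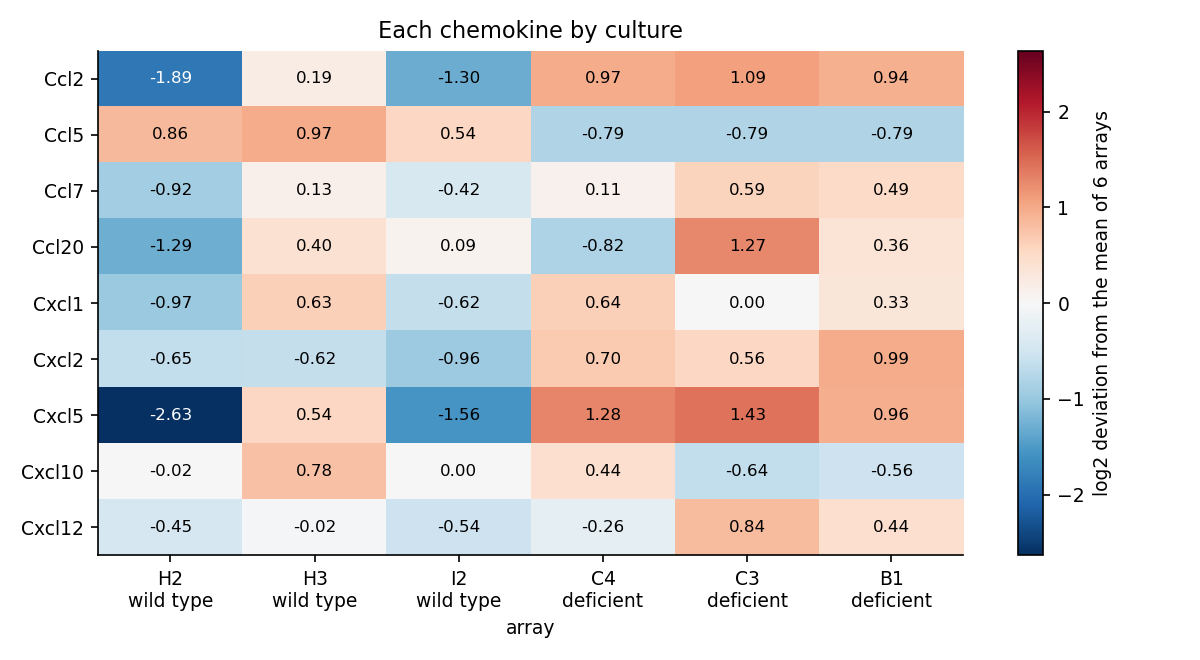
Log2 deviation from the mean of the 6 arrays (colour and printed value) for the 9 tested chemokines (y axis) on each array (x axis). H3 is above H2 and I2 in each gene, and H2 has the lowest values in Ccl2 (-1.89) and Cxcl5 (-2.63). The 3 deficient values of Ccl5 are equal because all were raised to the floor of 0.57.

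Over the 6 arrays, the genes most like Ccl2 were Dpm2 (Pearson r = 0.998), Zfp119a (0.997) and Ttc30b (0.997) of 11858 genes searched, and none of the 3 passed the test. Cxcl5 ranked 18 (r = 0.993) and Ccl7 ranked 404 (r = 0.952) in that list. The genes most like Cxcl12 were Ddit4 (r = 0.992), Rassf4 (0.989) and Tspyl1 (0.988). These are descriptions over 6 arrays that fall in the same 2 genotypes, with no test. Ccl2 and Cxcl5 share the order of the arrays closely, with C3 highest and H2 lowest in both.

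Other chemokine ligands were described from a list of 31 genes, of which 27 had a probe and 20 were tested. Of these, 2 were called higher, 0 lower, and 6 had an unadjusted limma p under 0.05, with a list median of 0.11. Ccl12 (MCP-5), which lies between Ccl11 and Ccl8, read 3.39, 8.50 and 4.32 in C4, C3 and B1 and 1.91, 1.97 and 1.49 in H2, H3 and I2. Its difference was 1.49 ± 0.31 (limma, adjusted p = 0.0327), 1.11 without C3 (adjusted p = 0.0432) and 1.57 without H3 (adjusted p = 0.0275). Ppbp, the next gene to Cxcl5 and a platelet and myeloid product, read 4.62, 3.12 and 3.18 against 1.88, 1.63 and 1.72, a difference of 1.04 ± 0.19 (limma, adjusted p = 0.0271). Neither gene was called without C4, B1, H2 or I2, with adjusted p of 0.0698 to 0.135 for Ccl12 and 0.0698 to 0.120 for Ppbp, and Ccl12 was not called with normexp (0.82, adjusted p = 0.0823). The groups did not overlap in either gene, and H3 was no higher than H2 in Ppbp. Ccl12 is similar in sequence to Ccl2, as Cxcl3 is to Cxcl1 and Cxcl2, and whether a probe reads a paralogue was not tested. Cxcl3 differed by 1.01 ± 0.39 and did not pass (adjusted p = 0.138).

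Chemokine receptors were mostly dim. Of 22 genes with a probe, 10 were tested and 9 had no good flag on any array, 0 were called and 0 had an unadjusted limma p under 0.05, and the list median was -0.08. The scavenging receptors Ackr2 (-0.33 ± 0.15, adjusted p = 0.198) and Ackr3 (0.34 ± 0.19, adjusted p = 0.295) had the lowest p. Ccr2, the receptor of Ccl2 and Ccl7, was below background on all 6 arrays, and Cxcr2, of Cxcl1, Cxcl2 and Cxcl5, was below it on all but H3. Ccr6, of Ccl20, was below background on all 6 arrays, and Cxcr4, of Cxcl12, had good flags on 4. Cxcr3, of Cxcl10, had good flags on all 6 and read 10.02, 10.7 and 11.2 in C4, C3 and B1 and 15.8, 11.2 and 12.2 in H2, H3 and I2, an overlapping difference of -0.28 ± 0.17 (adjusted p = 0.340). These 5 receptors were picked for their ligands after their values were seen.

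Among 13 tested inducing cytokines and their receptors, 3 were called higher and 0 lower, with a median of 0.38. Ifnar1 was counted by its brighter probe (0.05 ± 0.16), while its dimmer probe differed by 1.15 ± 0.29 (limma, adjusted p = 0.0481). Il6, a cytokine made by stimulated fibroblasts, read 6.89, 7.21 and 8.03 in C4, C3 and B1 and 2.03, 4.54 and 1.72 in H2, H3 and I2 (1.55 ± 0.32, limma, adjusted p = 0.0327). Il1r1, the interleukin-1 receptor, read 5.37, 6.95 and 6.72 against 1.38, 4.47 and 1.66 (1.54 ± 0.38, adjusted p = 0.0478). Tlr2, a receptor for microbial lipopeptides, read 10.1, 9.52 and 8.34 against 4.45, 6.79 and 3.64 (0.95 ± 0.23, adjusted p = 0.0444). In each of the 3, H3 was the highest wild-type culture and the groups did not overlap, as in Ccl2 and Cxcl5. None of the 3 was called when any 1 array other than H3 was left out, and 7 genes of the list were called without H3, 6 of them higher and Il1rap lower.

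Of 12 tested genes of NF-kB signalling, 0 were called and 3 had an unadjusted limma p under 0.05, with a median of 0.15. Ikbkb (0.65 ± 0.19, adjusted p = 0.0686), a kinase that releases NF-kB, and Map3k7 (0.64 ± 0.22, adjusted p = 0.113), the kinase above it, had the lowest p, though a further Ikbkb probe read 0.20 ± 0.16. Of 11 tested genes of interferon signalling, 0 were called and 2 had an unadjusted limma p under 0.05, with a median of -0.12. Irf3 (0.85 ± 0.28, adjusted p = 0.0955) and Irf1 (-0.40 ± 0.16, adjusted p = 0.162) had the lowest p.

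**Figure D4:**
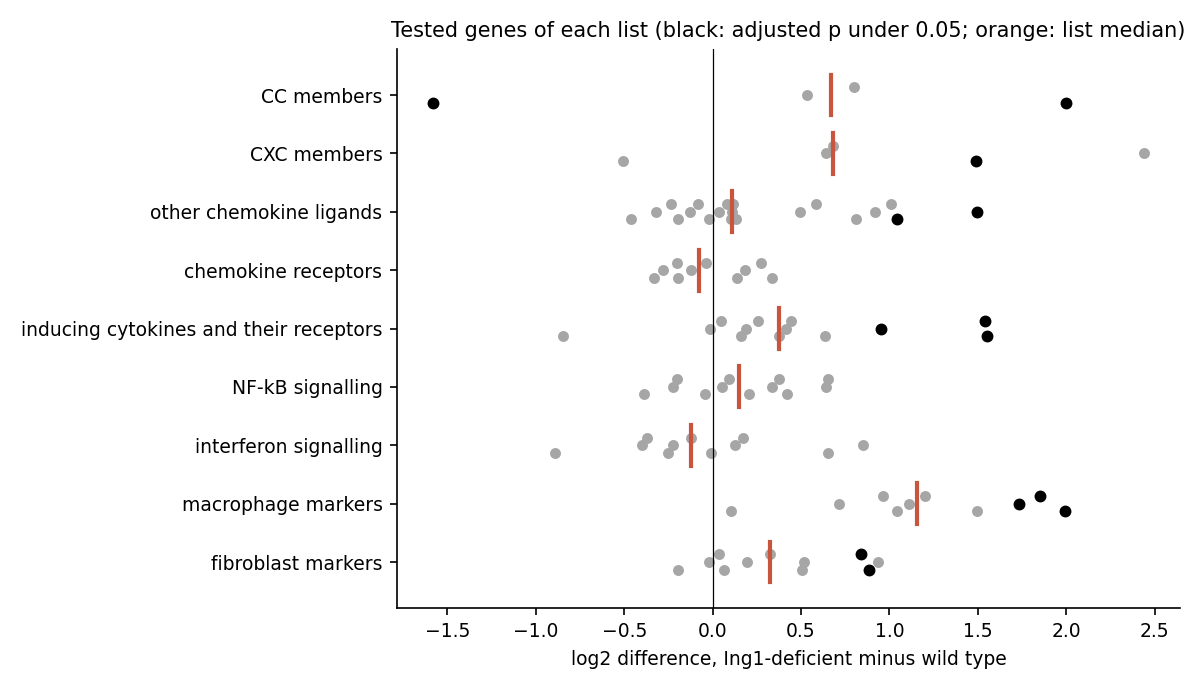
Log2 difference, Ing1-deficient minus wild type (x axis), of each tested gene in the chemokine groups and the other lists (y axis). Black points have an adjusted p under 0.05 and orange bars are list medians. The chemokine medians are 0.67 (CC) and 0.68 (CXC), those of the receptors and the interferon list are -0.08 and -0.12, and that of the macrophage markers is 1.15.

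Macrophages are another cell type that makes chemokines. Of 10 tested macrophage markers, all 10 differences were above 0 and 3 were called: C1qa (2.00 ± 0.46, limma, adjusted p = 0.0394), C1qb (1.85 ± 0.37, adjusted p = 0.0308) and Mrc1 (1.73 ± 0.37, adjusted p = 0.0336). None of the 10 was called without B1, H2 or I2, 1 was without C4, 2 without C3 and 3 without H3. Their summed intensity over 13 genes was 56.9, 173 and 91.7 in C4, C3 and B1 and 61.5, 39.3 and 26.6 in H2, H3 and I2. C4 lay below H2, so the sums overlapped, though bright probes weigh most in a sum: Lyz2 alone read 25.2 in C4 and 80.8 in C3. Gene by gene, the groups did not overlap in 5 of the 10 tested markers (C1qa, C1qb, C1qc, Mrc1 and Aif1), against 31.4% of all tested probes. Good flags on all 6 arrays were carried by 8 of the 13 genes, among them Lyz2, Cd14, C1qa and C1qb. The leukocyte gene Ptprc was below background on all 6 arrays, Itgam had a good flag only in C3 and Adgre1 only in C3 and B1. In Ccl2, Ccl7, Ccl20, Cxcl5 and Cxcl12 C3 was the highest array, and their differences without it are given above with those of the other chemokines. B1, which stays in those fits, also had a higher sum than every wild-type array. The part of macrophages in the chemokine values was not tested. Endothelial markers were dim, with sums of 2.77 to 4.41 over 5 genes, and Kdr (0.03 ± 0.17) and Tek (0.03 ± 0.25) were not called. Pecam1 and Cdh5 were below background on all 6 arrays. Emcn was not tested, and 1 of its probes had good flags only in C3 and B1. That probe read 0.38, 1.57 and 1.29 in C4, C3 and B1 and 0.01, 0.28 and 0.43 in H2, H3 and I2.

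**Figure D5:**
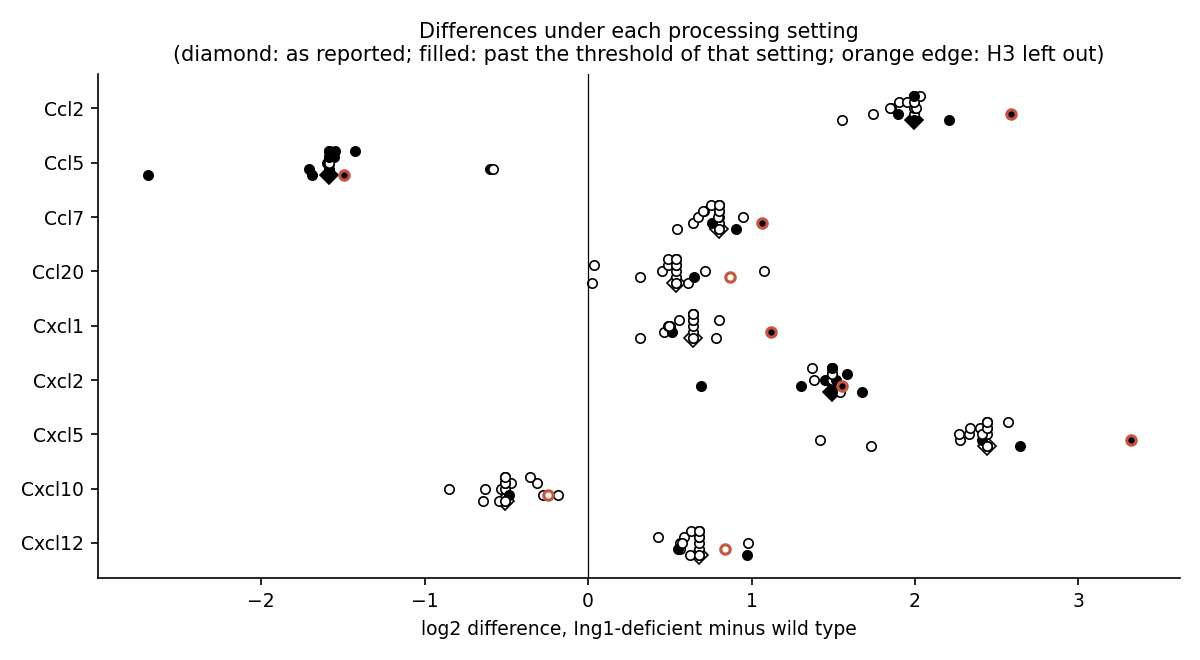
Log2 difference, Ing1-deficient minus wild type (x axis), of each tested chemokine (y axis) under the processing alternatives. Diamonds are the values as reported, filled symbols passed the threshold of that setting and orange edges mark the fit without H3. No gene changed sign, and without H3 Cxcl5 moved from 2.44 to 3.32 and Cxcl1 from 0.64 to 1.12.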

How the data were processed

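Biotin-labelled RNA of 6 fibroblast cultures was hybridised to 1-colour CodeLink arrays, 1 slide each. The authors quantified spots with CodeLink Expression Analysis 4.1.0.29054, per the file headers. The deposited normalized intensity, on a linear scale, is each spot's mean after subtraction of its local background, scaled to the median transcript probe of that array (masked spots aside), as worked out from the values. The deposited series table held the same intensity in 217362 of 217362 values (tolerance 1e-09). Genome build is not given in the sources used here.

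The 34967 transcript probes were used and 1260 control spots left out. Symbols came from the platform annotation: a single symbol was given for 21615 probes, several for 681 and no symbol for 12671. RefSeq (GRCm38.p6) held the gene ID of 21487 probes and was used for names, neighbours and promoter sequence. Masked spots were missing values. Intensities under the floor of 0.57, the median over arrays of the 1st percentile of good-flag probes, were raised to it and log2 was taken, which understates differences of dim probes. Genotypes were compared with limma 3.58.1 (lmFit, eBayes, two-sided) in R 4.3.3. The scripts were tested on simulated data. A gene in a list was represented by whichever tested probe was brightest on average.

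The members and lists were chosen with earlier results of these data known. Named were all members, Ing1, up to 6 called genes per further list (otherwise the 2 with the lowest p) and the 3 genes most like Ccl2 and Cxcl12, the members with the highest mean in each family. Alternatives were normexp with an offset of 50, normalization by quantiles or by cyclic loess, the deposited series table, a floor of 0.01 or 1.14, no flag filter, good flags required on 6 arrays, a robust fit with a variance trend, array weights, a random block (statmod 1.5.0) for the first letter of the culture name, leaving out arrays 1 at a time, the mean over a gene's probes, and the Student test with a ratio over 2 or under 0.5 that the labels state, called the methods' t-test. Precision is limited by 3 arrays per genotype.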

Additional observations from a re-analysis of the deposited data

How the results depend on the processing

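No chemokine changed sign under any of the alternatives run. Against 3 chemokines and 1286 probes called, normexp called 2 and 576, quantile 2 and 739, loess 2 and 766, a floor near 0 2 and 275, a floor at 2 times the one used 1 and 191, and no flag filter 0 and 20 (4644 at unadjusted p under 0.05). Array weights called 6 and 4720, and the leading letter as a random block 9 and 12901, with a within-letter correlation of -0.89. No letter held both genotypes. With that negative correlation the standard error of Ccl2 went from 0.43 to 0.13, so the calls of this fit rest on the correlation. Leaving out each array called 0 (without B1) to 6 (without H3) chemokines and 5 (without B1) to 2726 (without H3) probes. Without B1, 4114 of the tested probes had an unadjusted limma p under 0.05. The methods' t-test called 0 chemokines and 7 probes adjusted, and 3 and 606 unadjusted with the ratio rule. What caused the shifts under the other settings was not tested. Of the calls, 60.8% were higher under quantile and 65.5% under loess, against 75.2%, and those scalings moved the median of all probes to -0.05 and -0.01 from 0.02. Ccl2 passed in 8 of 20 alternatives, Cxcl2 in 15 of 20 and Ccl5 in 15 of 19. The tallies, also that of Cxcl5 above, are not independent checks. They include the deposited series table, which held the same values, so its result was fixed. They also include the random block, which called 65.9% of all tested probes, and the unadjusted t-test with the ratio rule. Kdr, at 0.03, was -0.0084 with normexp, -0.14 with array weights and -0.10 to 0.16 with an array left out. Tek, at 0.03, was -0.015 with normexp, -0.17 with a floor near 0 and -0.15 to 0.25 with an array left out. Each array had its own slide, so no slide block was run. No paired analysis was possible because the labels do not say which embryos shared a litter. Signals near background limit Ccl5, Ccl8 and most receptors.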
